A study of Mus musculus with 30 samples.

Results

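Mtor, Gcnt3, Senp6, Sfxn2 and Pdlim5 are 5 genes whose array signal stood apart in the hippocampus of heterozygous COX-2 mice, and they were chosen by that difference, the Z scores of COX-2+/- set against those of COX-2+/+ hippocampus. Every probe annotated to one of them was included, which gave 8 of all 16896 probes on the array. Senp6 has 3 probes (13, 563 and 6715), Pdlim5 has 2 (8101 and 8418), and Gcnt3 (3627), Sfxn2 (8261) and Mtor (10687) have 1 each. Where a gene has several, the lead probe is the one with the largest heterozygous difference in hippocampus.

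Mice were 12 weeks old. Radiolabelled cDNA from total RNA of their hippocampus and cerebral cortex was read on nylon membranes, on 30 arrays in 10 groups of 3. The groups were COX-2+/- (heterozygous), COX-2-/- (null) and COX-2+/+ (wild-type) mice, and COX-1-/- and COX-1+/+ mice, each in both regions. No treatment was given in the labels, and the mice were of a mixed genetic background. Null mice had a null father and a heterozygous mother and wild-type mice had wild-type parents, so genotype and parentage cannot be told apart, and the breeding of the heterozygous mice is not given in the sources used here. The study's methods give 3 mice per group and also triplicate hybridisation, so p-values measure the spread among arrays, which may be technical.

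COX-1 and COX-2, encoded by Ptgs1 and Ptgs2, convert arachidonic acid to the precursor of the prostaglandins. COX-1 is present in many cells at a steady level, whereas COX-2 is found in excitatory neurons of the forebrain and is induced by synaptic activity and inflammation. The 5 genes belong to different pathways. Mtor encodes the kinase of both mTOR complexes, which couple nutrients and growth factors to translation and autophagy. Gcnt3 encodes a Golgi transferase that branches mucin-type O-glycans and is best known from mucus-secreting epithelia. Senp6 encodes a protease that trims chains of the small modifier SUMO, Sfxn2 a sideroflexin of the inner mitochondrial membrane, and Pdlim5 a PDZ-LIM scaffold that ties kinases to the actin cytoskeleton.

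Values are Z scores, the distance of a probe's natural log intensity from the array mean in units of the array's SD. Differences in Z are not fold changes, and levels of different probes are not comparable. The z ratio is the difference between 2 group means over the SD of that difference across probes, which lay between 0.101 and 0.119 in the 6 comparisons with wild type. The formula printed in the study's methods divides by the SD of an array, which is 1, and no probe would pass with that divisor. A probe met the rule of the study when its mean Z was above 0, its replicates separated by a Z test and its z ratio exceeded 1.5 in either direction, and it was called by limma at a Benjamini-Hochberg adjusted p under 0.05. Arrays of one group correlated across probes with r between 0.984 and 0.993. The table has 2 parts of equal size, and in the first the 6 COX-1 cortex arrays other than COX-1-/- replicate 3 hold identical values (5 arrays), so COX-1 cortex is given only for Mtor, which lies in the other part, and cortex fits of the other 7 probes leave those 6 arrays out. No probe was found under the symbols Ptgs1 or Ptgs2, so the deletions could not be checked here. Of 10 hippocampal and 10 cortical marker genes 3 and 2 were measured, none with a mean Z above 0 in the COX-2 groups, so these could not check the dissection either. Ttr, a marker of the choroid plexus, is given for both regions below.

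In hippocampus of COX-2+/- mice, Gcnt3 and Mtor were higher and the lead probes of Senp6, Sfxn2 and Pdlim5 were lower than in COX-2+/+ mice. These values chose the genes and are given as a description, with no test. The 5 lead probes met the rule of the study and limma's threshold, which the choice itself fixed. Over the whole array 6.21% of 8041 probes met the rule (499, of which 311 were higher) and limma called 2.82% (227, of which 147 were higher). That limma count lay between 13 and 62 whichever of the 6 arrays was left out, with 13 without COX-2+/- replicate 3 and 62 without COX-2+/+ replicate 1. Groups without overlap were frequent in this comparison, at 33.3% of probes.

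Gcnt3 had Z scores of 1.002, 1.01 and 1.08 in COX-2+/- hippocampus, 0.303, 0.810 and 1.07 in COX-2-/- hippocampus, and 0.341, 0.320 and 0.336 in COX-2+/+ hippocampus. The heterozygous arrays lay together far above the wild-type arrays, and the null arrays spread over the whole interval, with replicate 1 at the wild-type level and replicate 3 at the heterozygous level. The heterozygous difference was 0.697 (z ratio 5.84, rank 1 of 8041 by size). The null difference was 0.395 (SE 0.131), with a z ratio of 3.77, and missed the rule of the study. When COX-2-/- replicate 1 was left out, the null difference was 0.607 and the rule was met, and without replicate 3 it was 0.224 and the rule was not met. In COX-1 hippocampus Gcnt3 stood at 0.371, 0.494 and 0.429 in COX-1-/- mice and at 0.610, 0.391 and 0.383 in COX-1+/+ mice. These groups overlapped, and all 6 values were below the heterozygous COX-2 arrays.

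Mtor had Z scores of 0.523, 0.535 and 0.485 in COX-2+/- hippocampus, 0.0484, 0.300 and 0.276 in COX-2-/- hippocampus, and 0.0309, 0.0947 and 0.0248 in COX-2+/+ hippocampus. The 3 heterozygous arrays were highest, with no overlap with either other group, and COX-2-/- replicate 1 lay among the wild-type arrays while the other two null arrays lay between the groups. The heterozygous difference was 0.464 (z ratio 3.89, rank 15), and the null difference was 0.158 (SE 0.0711, z ratio 1.51), which missed the rule. Leaving out COX-2-/- replicate 1 gave a null difference of 0.238, and without COX-2+/+ replicate 2 it was 0.180, and the rule was met in both cases. Without COX-2-/- replicate 2 or 3 it was 0.112 or 0.124 (z ratios 0.983 and 1.18), and the rule was not met.

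Senp6 probe 13 had Z scores of 2.12, 2.13 and 2.16 in COX-2+/- hippocampus, 2.68, 2.57 and 2.58 in COX-2-/- hippocampus, and 2.50, 2.59 and 2.57 in COX-2+/+ hippocampus. The heterozygous arrays were the lowest without overlap, and null and wild-type arrays overlapped. The heterozygous difference was -0.416 (z ratio -3.48, rank 32), against a null difference of 0.0559 (SE 0.0421). Sfxn2 stood at 0.0931, 0.148 and 0.0999 in COX-2+/- hippocampus, at 0.491, 0.645 and 0.669 in COX-2-/- hippocampus, and at 0.502, 0.489 and 0.619 in COX-2+/+ hippocampus. Here too the heterozygous arrays alone were low, with a difference of -0.423 (z ratio -3.54, rank 29), and the null difference was 0.0649 (SE 0.0530).

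Pdlim5 probe 8101 had Z scores of 1.76, 1.82 and 1.84 in COX-2+/- hippocampus, 2.16, 2.11 and 2.05 in COX-2-/- hippocampus, and 2.12, 2.19 and 2.15 in COX-2+/+ hippocampus. The heterozygous arrays were again lowest without overlap (difference -0.347, z ratio -2.91, rank 81), and the null difference was -0.0464 (SE 0.0437). In hippocampus the heterozygous group therefore held an extreme of the COX-2 genotype order for all 5 lead probes, and the null group lay in the middle for Gcnt3, Mtor and Pdlim5 and at the end opposite to the heterozygous group for Senp6 and Sfxn2. Neighbouring null and wild-type groups overlapped for all 5. None of the 8 probes met the rule of the study in COX-2-/- hippocampus, where 4.09% of 8040 probes did (329), or was called by limma, which called 0% (0, with 985 probes, 12.3%, at an unadjusted p under 0.05, and 57 after adjustment without COX-2-/- replicate 1). This comparison shares its 3 wild-type arrays with the heterozygous one and is not an independent check.

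**Figure D1:**
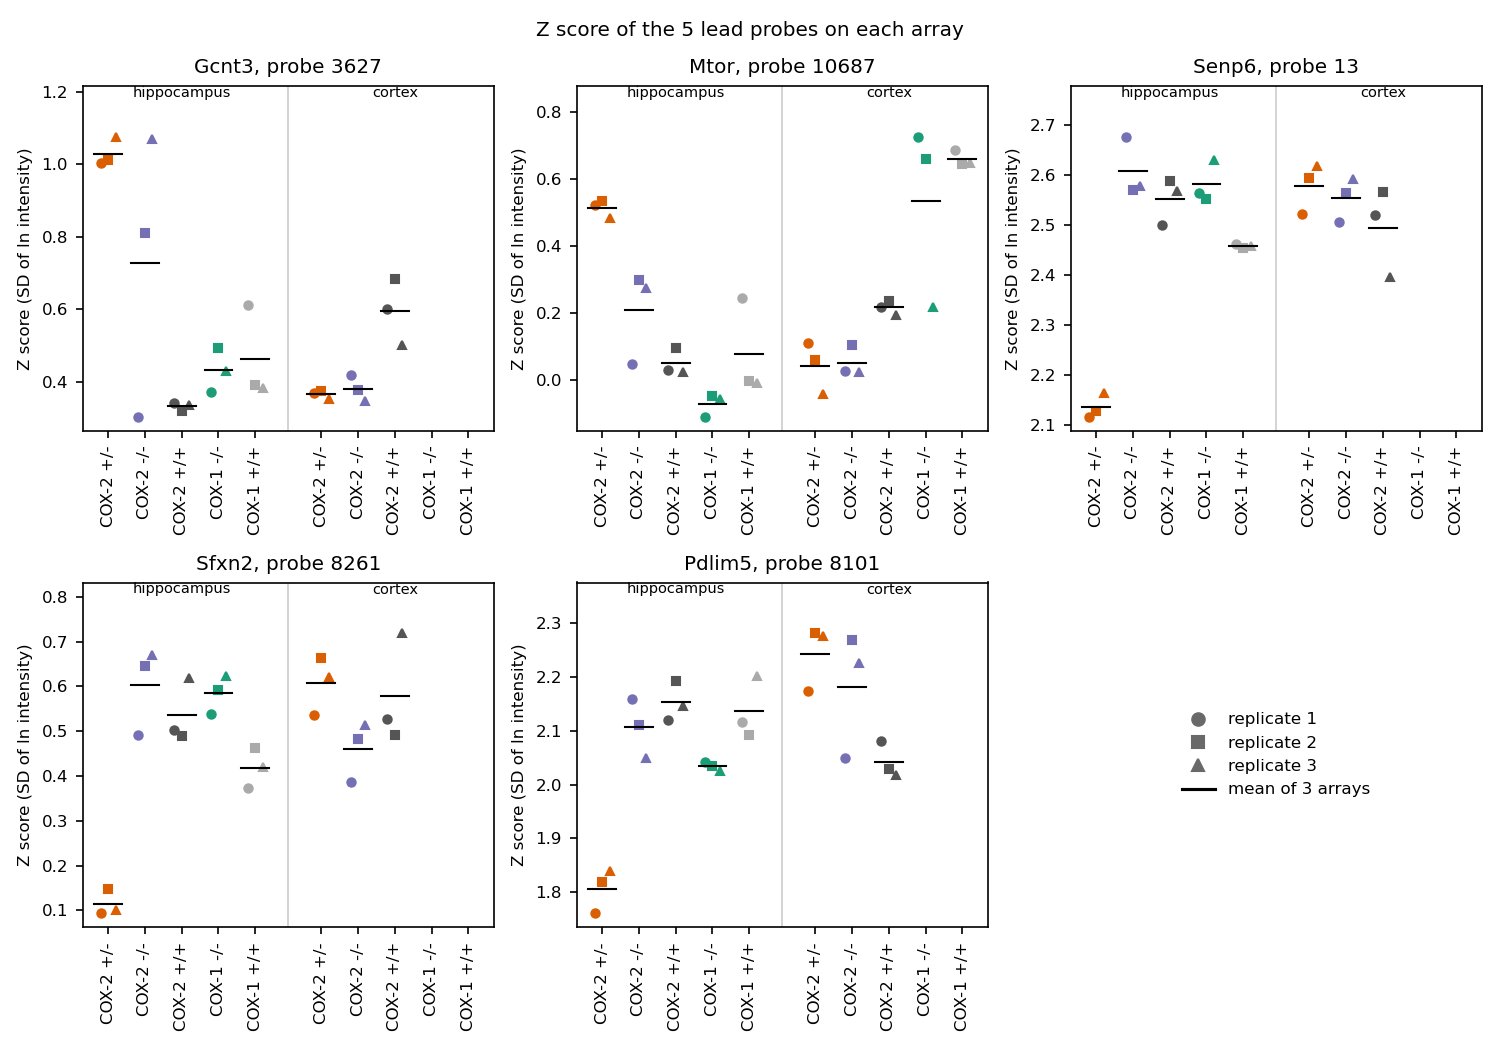
Z score (SD of ln intensity) of the lead probe of each gene on each array, by genotype, with hippocampus on the left and cortex on the right of each panel; symbols mark replicates and black lines the mean of 3 arrays. The 3 COX-2+/- hippocampus arrays stand together, above COX-2+/+ for Gcnt3 (1.03 against 0.332 on average) and Mtor and below it for Senp6, Sfxn2 and Pdlim5. In cortex they lie on the other side of COX-2+/+ for Gcnt3, Mtor and Pdlim5 and overlap it for Senp6 and Sfxn2. COX-1 cortex is shown for Mtor alone.

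The other probes of Senp6 and Pdlim5 did not show the difference at the same size. Senp6 probe 563 stood at 1.28, 1.20 and 1.26 in COX-2+/- hippocampus and at 1.36, 1.47 and 1.42 in COX-2+/+ hippocampus. The groups did not overlap and the direction was that of probe 13, but the z ratio of -1.45 fell just short of the threshold. Senp6 probe 6715, which lay near the array mean, had group means of 0.0132 ± 0.0658 and -0.00549 ± 0.0438 (SD, n = 3 each, COX-2+/- and COX-2+/+) and a z ratio of 0.157. Pdlim5 probe 8418 stood at 0.649, 0.640 and 0.741 in COX-2+/- hippocampus against 0.689, 0.709 and 0.803 in COX-2+/+ hippocampus. These groups overlapped, with a z ratio of -0.474, less than the size of -2.91 at probe 8101. Where on the transcript each cDNA lies is not given in the sources used here, so whether probes of one gene read the same transcripts was not tested.

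**Figure D2:**
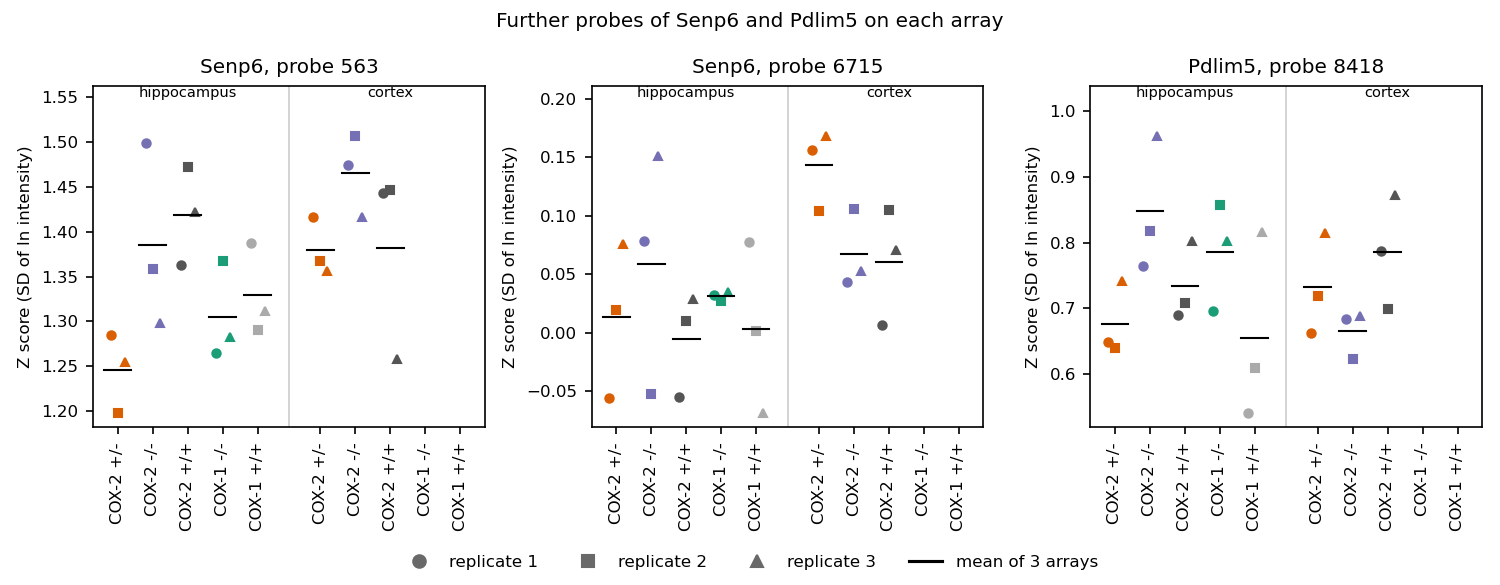
Z score (SD of ln intensity) of the further Senp6 and Pdlim5 probes on each array, by genotype and region, with symbols for replicates and black lines for the mean of 3 arrays. In hippocampus COX-2+/- arrays lie below COX-2+/+ arrays without overlap only for Senp6 probe 563 (1.25 against 1.42 on average); the other two probes overlap. COX-1 cortex is left out.

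Among the 24 arrays outside COX-1 cortex the lead probes moved in a pair of opposed sets, Gcnt3 with Mtor and Senp6 with Sfxn2 and Pdlim5. Pearson's r was 0.89 for Gcnt3 and Mtor, 0.82 for Senp6 and Sfxn2, 0.80 for Senp6 and Pdlim5 and -0.68 for Senp6 and Gcnt3. These values are descriptive, since arrays of a group are not independent of each other and the 3 heterozygous hippocampus arrays lie apart. Over the 21 other arrays r was 0.75 for Gcnt3 and Mtor, 0.23 for Senp6 and Sfxn2, 0.30 for Senp6 and Pdlim5 and -0.077 for Senp6 and Gcnt3. Gcnt3 and Mtor thus followed each other from array to array in other groups as well, with both high in COX-1+/+ hippocampus replicate 1 and both low in COX-2-/- hippocampus replicate 1, whereas the other 3 relations rested on the heterozygous hippocampus. The probes most like Mtor across the 24 arrays were those of H2-T10, Csnk1g1 and Dbpht2 (r = 0.947, 0.942 and 0.921), and those most like Gcnt3 were of Prrg4, Praf2 and Dbpht2 (r = 0.958, 0.954 and 0.943). Senp6 probe 13 was most like Dcakd, Agpat1 and Nxf1 (r = 0.935, 0.894 and 0.858), Sfxn2 like Senp6, Dio3os and Patj (r = 0.823, 0.788 and 0.767), and Pdlim5 probe 8101 like Bsg, Tmod3 and Dcakd (r = 0.929, 0.872 and 0.848). Bsg and Tmod3 lie 44 and 38 rows from the Pdlim5 probe in the table, and the part of row order in that likeness was not tested.

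**Figure D3:**
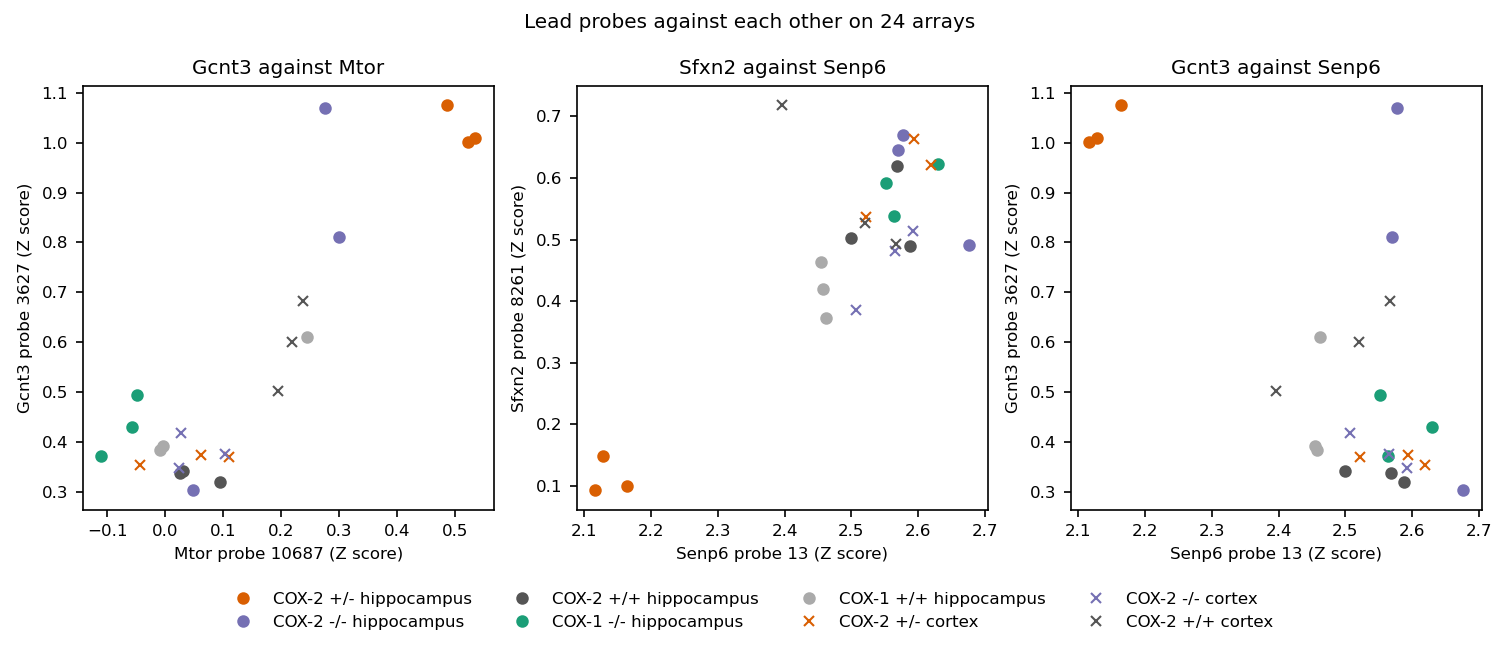
Z scores of lead probes plotted against each other on 24 arrays: Gcnt3 against Mtor, Sfxn2 against Senp6 and Gcnt3 against Senp6, with colour for genotype, circles for hippocampus and crosses for cortex. Gcnt3 and Mtor run along a common line (r = 0.89), and in the panels with Senp6 the COX-2+/- hippocampus arrays form a corner of their own.

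The RefSeq windows of 250 bases before the start site are shown for Mtor and for the 3 genes that were lower in COX-2+/- hippocampus. That grouping comes from the arrays that chose the genes. Over the 21 other arrays r was 0.23 for Senp6 and Sfxn2, 0.30 for Senp6 and Pdlim5 and -0.0905 for Pdlim5 and Sfxn2. RefSeq's table (GRCm38.p6) holds Mtor, Senp6, Sfxn2 and Pdlim5, the last with a second start that is not shown; Gcnt3 has no entry. Capitals mark matches on either strand to the GC box GGGCGG, the CCAAT box CCAAT, the E-box CACGTG, the core TGACG of the cyclic AMP response element and the TATA box TATAAA.
Mtor (chr4:148448332-148448581, plus strand): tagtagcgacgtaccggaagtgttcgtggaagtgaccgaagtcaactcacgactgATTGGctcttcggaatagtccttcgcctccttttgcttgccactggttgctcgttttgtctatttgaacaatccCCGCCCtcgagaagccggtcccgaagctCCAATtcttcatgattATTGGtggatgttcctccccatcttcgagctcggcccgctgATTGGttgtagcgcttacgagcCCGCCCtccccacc
Senp6 (chr9:80066653-80066902, plus strand): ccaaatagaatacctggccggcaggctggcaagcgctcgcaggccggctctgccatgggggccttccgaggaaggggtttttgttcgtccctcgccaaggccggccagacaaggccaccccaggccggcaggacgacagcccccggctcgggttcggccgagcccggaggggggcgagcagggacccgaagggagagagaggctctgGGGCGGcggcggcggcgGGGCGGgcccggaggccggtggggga
Sfxn2 (chr19:46573115-46573364, plus strand): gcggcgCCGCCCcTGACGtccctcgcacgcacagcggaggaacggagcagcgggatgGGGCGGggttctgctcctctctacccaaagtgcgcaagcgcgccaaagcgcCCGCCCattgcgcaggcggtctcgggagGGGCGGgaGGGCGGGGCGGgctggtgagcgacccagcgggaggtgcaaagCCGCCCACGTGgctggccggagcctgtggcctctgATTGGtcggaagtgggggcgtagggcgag
Pdlim5 (chr3:142395697-142395946, minus strand): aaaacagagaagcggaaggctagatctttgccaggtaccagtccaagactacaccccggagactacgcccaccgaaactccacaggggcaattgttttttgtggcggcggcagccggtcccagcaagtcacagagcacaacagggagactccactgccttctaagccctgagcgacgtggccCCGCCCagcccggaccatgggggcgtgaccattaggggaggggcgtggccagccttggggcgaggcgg
The Mtor window holds 2 GC boxes and 4 CCAAT boxes, the Senp6 window 2 GC boxes, the Sfxn2 window 7 GC boxes and 1 match each to the CCAAT box, the E-box (which overlaps a GC box) and the core TGACG, and the Pdlim5 window 1 GC box. Of 32851 windows of this length, 32.7% hold the GC box, 33.8% the CCAAT box, 6.02% the E-box, 17.8% the core TGACG, 12.4% the TATA box and 1.55% the full response element TGACGTCA, which none of the 4 windows shown holds. In the windows shown, the GC box is common to the 3 genes that were lower and to Mtor. The second Pdlim5 window holds 0 GC boxes, 2 CCAAT boxes and 1 TATA box, so with that start no searched match is common to the 3 genes. A match is a description of the letters and not a bound site.

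In cortex, arrays that had no part in the choice of the genes, the heterozygous differences of Gcnt3, Mtor and Pdlim5 probe 8101 ran the other way, though none passed limma. Gcnt3 stood at 0.369, 0.373 and 0.353 in COX-2+/- cortex, 0.417, 0.376 and 0.347 in COX-2-/- cortex, and 0.600, 0.683 and 0.501 in COX-2+/+ cortex. Heterozygous and null arrays lay together below all 3 wild-type arrays. The heterozygous difference was -0.230 (SE 0.0521, 95% interval -0.344 to -0.115, z ratio -2.14, limma adjusted p = 0.479) and the null difference was -0.215 (SE 0.0521, z ratio -2.12, limma adjusted p = 0.419), and both met the rule of the study.

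Mtor stood at 0.109, 0.0611 and -0.0431 in COX-2+/- cortex, 0.0273, 0.104 and 0.0234 in COX-2-/- cortex, and 0.219, 0.237 and 0.195 in COX-2+/+ cortex. Again the wild-type arrays were highest without overlap, whereas in hippocampus their mean had been the lowest and they overlapped the null arrays. The heterozygous difference was -0.174 (SE 0.0937, z ratio -1.63, limma adjusted p = 0.697) and the null difference -0.165 (SE 0.0937, z ratio -1.63, limma adjusted p = 0.583). Both met the rule of the study, the heterozygous one not without COX-2+/- replicate 3 (z ratio -1.11) or COX-2+/+ replicate 2 (z ratio -1.43), and the null one not without COX-2-/- replicate 1 or 3 or COX-2+/+ replicate 1 or 2 (z ratios -1.49 to -1.32).

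Pdlim5 probe 8101 stood at 2.17, 2.28 and 2.28 in COX-2+/- cortex, 2.05, 2.27 and 2.23 in COX-2-/- cortex, and 2.08, 2.03 and 2.02 in COX-2+/+ cortex. Heterozygous arrays were above wild-type arrays without overlap, and the null arrays overlapped both groups. The heterozygous difference was 0.201 (SE 0.0615, z ratio 1.88, limma adjusted p = 0.534), which met the rule of the study, and the null difference was 0.139 (SE 0.0615, z ratio 1.37, limma adjusted p = 0.517), which did not. After subtraction of a running median over neighbouring rows of the table the heterozygous z ratio was 1.16 and the rule was no longer met.

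Senp6 and Sfxn2 had smaller differences in cortex. Senp6 probe 13 stood at 2.52, 2.59 and 2.62 in COX-2+/- cortex, 2.51, 2.57 and 2.59 in COX-2-/- cortex, and 2.52, 2.57 and 2.40 in COX-2+/+ cortex. The 3 groups overlapped, with a heterozygous difference of 0.0840 (95% interval -0.0373 to 0.205). Sfxn2 stood at 0.536, 0.663 and 0.620 in COX-2+/- cortex, 0.385, 0.482 and 0.513 in COX-2-/- cortex, and 0.527, 0.492 and 0.718 in COX-2+/+ cortex. Heterozygous and wild-type arrays overlapped, with a difference of 0.0273 (95% interval -0.119 to 0.173). The further probes stayed inside the threshold, with heterozygous z ratios of -0.0224 for Senp6 probe 563, 0.768 for Senp6 probe 6715 and -0.504 for Pdlim5 probe 8418.

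In all, 3 of the 8 probes met the rule of the study in COX-2+/- cortex, where 3.26% of 8011 probes did (261), and 2 of 8 in COX-2-/- cortex, where 4.32% of 8003 probes did (346). By limma 0 of 8 were called in either comparison, as were 0% of all probes, while Gcnt3 and Pdlim5 probe 8101 were under an unadjusted p of 0.05 in both, as were 608 probes (7.59%) in the heterozygous and 754 (9.42%) in the null comparison. Heterozygous and wild-type cortex did not overlap for 3 of 8 probes, against 16.3% of all probes, and null and wild-type cortex did not for 3 of 8, against 17.6%. These comparisons share the 3 COX-2+/+ cortex arrays. The genotype means stood in the order heterozygous, null, wild type in cortex for Gcnt3, Mtor, Senp6 probe 13 and Pdlim5 probe 8101, with the heterozygous mean lowest for Gcnt3 and Mtor and highest for Senp6 and Pdlim5, with an overlap between null and heterozygous arrays in each.

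**Figure D4:**
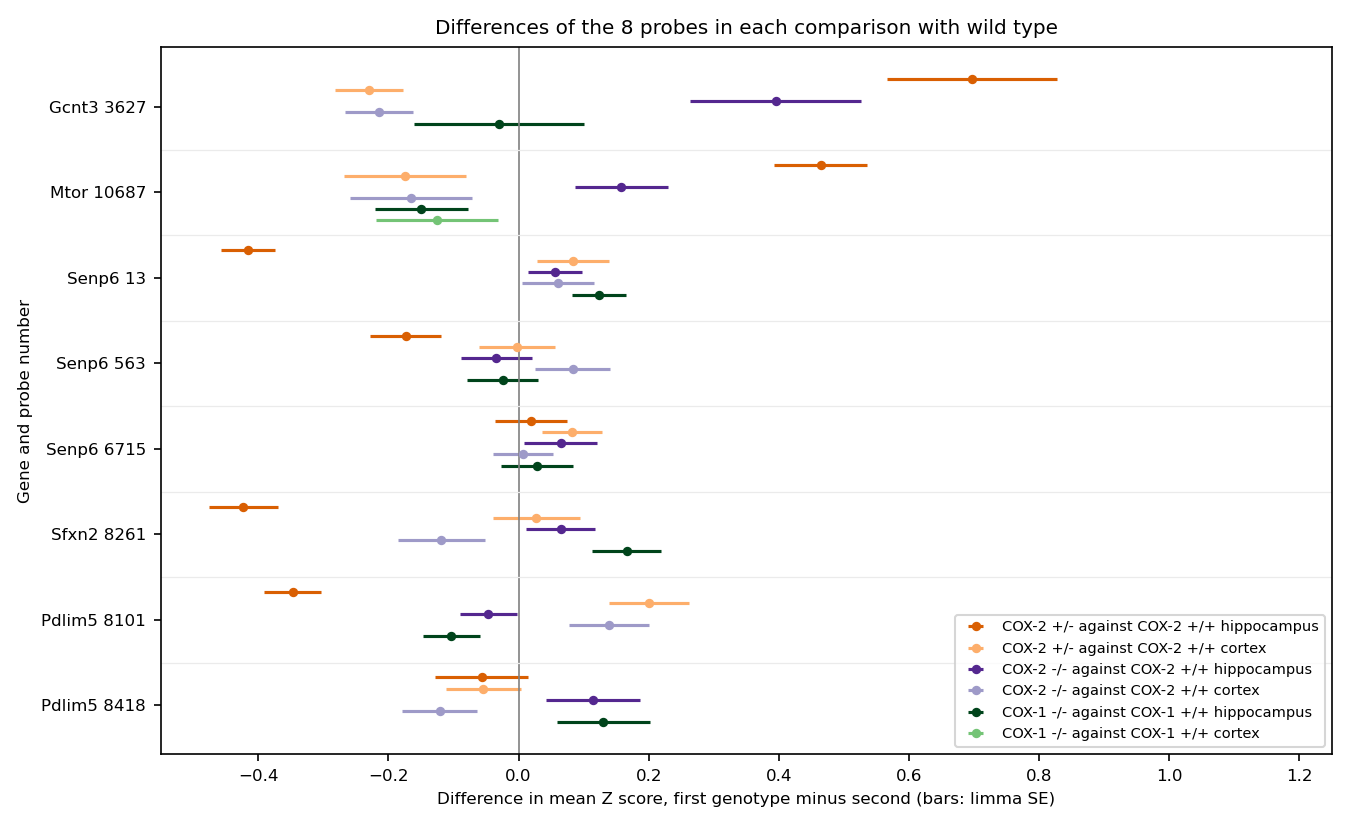
Difference in mean Z score of each probe in each comparison with wild type of the same line and region; points are first genotype minus second and bars the SE from limma. The COX-2+/- hippocampus points lie farthest from 0 for the 5 lead probes, up to 0.697 for Gcnt3, while the cortex points of Gcnt3, Mtor and Pdlim5 probe 8101 lie on the opposite side of 0.

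None of the 8 probes was called in the hippocampus of COX-1-/- mice by the rule of the study, which 4.80% of 8058 probes met (387), or by limma, which called 0.310% (25, and 0 to 17 without any one of the 6 arrays). Sfxn2 came nearest, at 0.539, 0.592 and 0.623 in COX-1-/- hippocampus and 0.373, 0.463 and 0.420 in COX-1+/+ hippocampus. The null arrays were all higher, with a difference of 0.166 (SE 0.0530, z ratio 1.45, limma adjusted p = 0.141). Senp6 probe 13 stood at 2.56, 2.55 and 2.63 in COX-1-/- and 2.46, 2.45 and 2.46 in COX-1+/+ hippocampus, also higher without overlap (difference 0.124, SE 0.0421, z ratio 1.08, limma adjusted p = 0.167). Pdlim5 probe 8101 had a difference of -0.103 (SE 0.0437, limma adjusted p = 0.257) and Mtor of -0.149 (SE 0.0711, limma adjusted p = 0.315), again without overlap. In sum 4 of the 8 probes did not overlap between these groups, against 21.8% of all probes.

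In COX-1 cortex Mtor stood at 0.727, 0.661 and 0.218 in COX-1-/- mice and 0.688, 0.646 and 0.648 in COX-1+/+ mice. COX-1-/- replicate 3, the one array of this region and line whose first part was not identical to the others, was low, and the other two null arrays lay within or above the wild-type range. The groups overlapped, whereas 18.7% of probes in the second part did not. The difference was -0.125 (SE 0.0939, z ratio -1.13, limma adjusted p = 0.550) and met neither rule, at a background of 2.71% (111) and 0.0488% (2) of 4102 probes. Without that replicate it was 0.0334. Of the 6 COX-1 cortex arrays 5 had a Mtor value above every array outside this region and line, the highest of which was 0.535 in COX-2+/- hippocampus. Wild-type cortex averaged 0.660 ± 0.0237 in the COX-1 line and 0.217 ± 0.0214 in the COX-2 line (SD, n = 3 each). Line and any difference in handling between them cannot be told apart there.

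Between regions, null COX-2 arrays were compared because they had no part in the choice of the genes. None of the 8 probes was called by limma, against 0.635% of 8032 probes (51), and only Pdlim5 probe 8418 had groups without overlap, against 18.6% of all probes. Gcnt3 had the largest difference among them, with a mean of 0.727 ± 0.390 in hippocampus and 0.380 ± 0.0350 in cortex (SD, n = 3 each, difference 0.347, SE 0.112, limma adjusted p = 0.138). Hippocampal replicate 1, at 0.303, was below all 3 cortex arrays. Without it the difference was 0.560 and the limma adjusted p 0.000942, while without hippocampal replicate 3 they were 0.176 and 0.491. Over the other 4 arrays left out in turn the difference lay between 0.306 and 0.366 and was not called. Without hippocampal replicate 1 the count over all probes was 284, against 12 to 24 without any other of the 6 arrays.

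Cell type markers were few on the array. Of 8 neuronal genes 3 were measured, and their mean Z on an array lay between 0.454 and 0.530 in COX-2+/- hippocampus and between 0.570 and 0.645 in COX-2+/+ hippocampus. Of 7 astrocyte genes 2 were measured, at 0.404 to 0.460 against 0.531 to 0.559, and of 8 microglial genes 2, with 1 above the filter, at 0.507 to 0.575 against 0.388 to 0.483. These ranges did not overlap between the groups, and none of the marker probes met either rule. Of all single probes 33.3% did not overlap. That share is no background for the neuronal and astrocyte ranges, which are means over several probes. The microglial range is that of C1qb alone. C1qa, below the filter, went the other way, with means of -0.322 in COX-2+/- and -0.270 in COX-2+/+ hippocampus. The endothelial probe stood at 2.24 to 2.31 against 2.20 to 2.31. No oligodendrocyte gene was measured. For choroid plexus, 1 of 7 genes was measured, Ttr, at 0.833, 1.90 and 0.246 in COX-2+/- and 2.36, 1.97 and 0.402 in COX-2+/+ hippocampus. Replicate 3 was the lowest in both, and also in COX-2-/- (0.247) and COX-1-/- (0.326) hippocampus. In COX-1+/+ hippocampus it was the highest (1.89). The part of replicate number in these Ttr values was not tested. In cortex Ttr stood at 0.300, 0.186 and 1.59 in COX-2+/- and 0.212, 0.170 and 0.215 in COX-2+/+ mice. COX-2+/- cortex replicate 3 was thus far above the other COX-2 cortex arrays. Without that array 147 probes met the rule of the study in COX-2+/- cortex, against 261 with it, and Mtor did not. The part of tissue content in this was not tested. Fewer cells of a type and less RNA per cell cannot be told apart in such tissue, and the part of these shifts in the values of the 5 genes was not tested.

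Calls among other genes of the pathways of the 5 genes in COX-2+/- hippocampus were too few to be a result about the pathways. With the 5 genes left out, 2 of 89 list probes (2.25%) met the rule of the study, against 6.21% of all probes, and the same number was called by limma, against 2.82%. The calls of the 5 genes themselves were fixed by their choice. Of 71 mTOR signalling genes 39 were measured, and of their 34 probes above the filter Mtor alone was called, with a median difference of 0.0141 against 0.00375 over all probes. Of the 18 SUMO pathway probes above the filter only Senp6 probe 13 was called, and the median was -0.0192. Among the 14 probes of mucin-type O-glycosylation, Galnt10, a transferase that starts such glycans, was higher beside Gcnt3, at 0.431 ± 0.0853 in COX-2+/- and 0.0914 ± 0.0258 in COX-2+/+ hippocampus (SD, n = 3 each, limma adjusted p = 0.0376), and the median was 0.0316. It met the rule of the study without any one of the 6 arrays but was not called by limma without any of them (adjusted p 0.0944 to 0.136). These values are of Galnt10 probe 12080. The other Galnt10 probe, 2339, averaged 0.949 in COX-2+/- and 0.857 in COX-2+/+ hippocampus and was not called.

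Of 18 probes of sideroflexins with mitochondrial iron and haem genes only Sfxn2 was called (median -0.00620). Of 13 probes of PDZ-LIM proteins and their partners, Lasp1, an actin-binding LIM protein, was higher at 0.360 ± 0.0428 in COX-2+/- against 0.122 ± 0.0914 in COX-2+/+ hippocampus (SD, n = 3 each, limma adjusted p = 0.0415), Pdlim5 probe 8101 was lower, and the median was -0.0566. Without COX-2+/+ replicate 1 Lasp1 had a z ratio of 1.47 and met neither rule. Without any of the 6 arrays limma did not call it (adjusted p 0.0639 to 0.141). These values are of Lasp1 probe 2007. The other Lasp1 probe, 3694, lay below the filter and went the other way, at -0.806 in COX-2+/- and -0.678 in COX-2+/+ hippocampus on average.

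In the other comparisons with wild type limma called no list probe outside the 5 genes. The shares meeting the rule of the study lay on either side of those over all probes. Below were 1 of 89 (1.12%) against 3.26% in COX-2+/- cortex and 1 of 89 (1.12%) against 4.32% in COX-2-/- cortex. Above were 5 of 89 (5.62%) against 4.09% in COX-2-/- hippocampus and 5 of 92 (5.43%) against 4.80% in COX-1-/- hippocampus. The share was also above in COX-1-/- cortex, at 2 of 44 (4.55%) against 2.71%. These counts are no result about the lists, and the probes are named for completeness. Each z ratio is of the probe that was called, and some of these genes have further probes that were not called. In COX-2+/- cortex Sumo2, a SUMO protein, was higher (z ratio 1.75). In COX-2-/- hippocampus Galnt10 (z ratio 2.56), Lasp1 (2.01), the ferritin light chain gene Ftl1 (1.66), the autophagy gene Atg13 (1.63) and Pdlim2 (1.52) were higher, and in COX-2-/- cortex Slc38a9, a lysosomal arginine sensor of mTOR complex activation, was higher (z ratio 1.82). In COX-1-/- hippocampus the upstream kinase Stk11 (z ratio 1.81), the galactosyltransferase gene B4galt6 (1.75) and the nutrient-sensing GTPase Rragc (1.63) were higher and the translation factors Eif4b (-2.24) and Eif4e (-1.56) lower, and in COX-1-/- cortex Castor1, an arginine sensor, and Sumo2 were lower (z ratios -2.51 and -1.72). Castor1 kept its call without each array in turn, and the others lost it without 1 to 4 of the 6 arrays. By region in COX-2-/- mice limma called 1 of 89 list probes (1.12%, against 0.635% of all probes), the ferritin heavy chain gene Fth1, higher in hippocampus at 1.80 ± 0.0584 against 1.54 ± 0.0976 in cortex (SD, n = 3 each, adjusted p = 0.0480).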

How the data were processed

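The authors reverse transcribed total RNA with radiolabelled dCTP, hybridised it to a custom cDNA array on nylon, imaged the membranes with a phosphoimager, read intensities in ArrayPro and turned them into Z scores in an Excel macro. The deposited values are these scores, (ln intensity minus the array mean) over the array SD, for 16896 probes and 30 arrays, and within either part of the table every array is centred on 0 with unit SD. No sequencing depth applies, and the number of arrays limits the precision: an exact permutation test of 3 against 3 gives no p below 0.1.

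Probes were named from the platform annotation with symbols updated through RefSeq gene IDs (9663 probes with 1 symbol, 436 with several, 6797 with none). Group means were estimated by limma 3.58.1 (R 4.3.3) from the 15 arrays of a region (all 30 for the regional comparison), with adjustment over probes of mean Z above 0. The rule of the study was applied with each difference scaled to the SD of differences over probes, in place of the array SD of 1 in the study's printed formula, and in COX-1 cortex it covers the second part alone. Every probe of the 5 genes was named, with list members meeting either rule and, per lead probe, the 3 most similar probes with 1 symbol. The 5 genes and the lists were chosen with earlier results of these data known. The fits were tested on simulated data. Figures were drawn with matplotlib 3.10.9. Alternatives were other filters, normalizations, controls and arrays in the fit, an intensity trend, a replicate block, a row-order correction, and each array left out; keeping the copied values, fitting all 30 arrays and the divisor of the z ratio were chosen after seeing the data. Deviations of same-numbered arrays correlated weakly (r -0.0213 to 0.139), though nearly all values were above 0. Numbers were not taken as pairs in the main fits, and an effect shared by replicate number was not tested. With the replicate number as a block limma called 303 probes in COX-2+/- hippocampus, against 227 without it.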

Additional observations from a re-analysis of the deposited data

Results flagged for a closer look

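For 4 lead probes every COX-2+/- array differed from the COX-2+/+ mean one way in hippocampus and the opposite way in cortex. The difference between the regional effects was not tested. For Gcnt3 the heterozygous difference was 0.697 in hippocampus and -0.230 in cortex, which are 0.926 apart. For Mtor the 2 differences were 0.464 and -0.174, 0.639 apart. For Pdlim5 probe 8101 they were -0.347 in hippocampus and 0.201 in cortex, giving -0.548 for hippocampus minus cortex. For Senp6 probe 13 they were -0.416 and 0.0840, giving -0.500. The hippocampal value of each chose the gene, so the size of these gaps rests in part on that choice.

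Pdlim5 probe 8418 moved in opposite ways in COX-2-/- mice, with differences of 0.114 in hippocampus and -0.121 in cortex, 0.236 apart, and this was not tested either. Neither difference met the rule of the study or limma's threshold, and the hippocampal groups overlapped.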

How the results depend on the processing

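The 5 lead probes kept their direction in COX-2+/- hippocampus under every alternative. They met the rule of the study under all that kept the divisor of the z ratio, except that Mtor and Sfxn2 have a mean Z below 0.5 and leave under that filter. Over the alternatives the difference lay between 0.632 and 0.710 for Gcnt3 and between 0.448 and 0.487 for Mtor. For Senp6 probe 13 it lay between -0.442 and -0.258, for Sfxn2 between -0.447 and -0.364 and for Pdlim5 probe 8101 between -0.364 and -0.274. By limma, Gcnt3 lost its call in COX-2+/- hippocampus whichever of the 6 arrays was left out, and Mtor kept its call each time. The Gcnt3 difference itself lay between 0.674 and 0.710 without single arrays. Limma takes the spread from all hippocampus groups, and the SD of Gcnt3 was 0.390 in COX-2-/-, 0.0401 in COX-2+/- and 0.0113 in COX-2+/+ hippocampus. Of 573 recomputed member differences in the comparisons other than COX-2+/- and COX-2-/- against COX-2+/+ hippocampus, 550 kept direction and side of the limma threshold. Another 22 changed sign, all of them small and never called, and 1 passed (Gcnt3 between regions without COX-2-/- hippocampus replicate 1). Signal over background was not among the values used here, and the 3 arrays a group limit the precision.

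Counts of called probes moved more. By limma, leaving out each array gave 13 to 62 in COX-2+/- hippocampus, 0 to 57 in COX-2-/- hippocampus, 0 to 17 in COX-1-/- hippocampus, 0 to 4 in COX-1-/- cortex and 12 to 284 between regions. By the rule of the study it gave 147 to 291 in COX-2+/- cortex, with 147 without COX-2+/- replicate 3.

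With no filter the rule of the study gave 1303 in COX-2+/- and 1063 in COX-2-/- hippocampus, 767 in COX-2+/- and 931 in COX-2-/- cortex, 1242 in COX-1-/- hippocampus and 349 in COX-1-/- cortex, and limma gave 110 and 7 in the last pair. With a mean Z above 0.5 the rule gave 305, 146, 187 (COX-2-/- cortex), 165 and 58, and limma gave 142 in COX-2+/- hippocampus, 0 in COX-1-/- hippocampus and 28 between regions. With the SD of an array, which is 1, as the divisor of the z ratio, an alternative chosen after seeing the data, the rule gave 0 in every comparison. A z ratio beyond 2 left 223, 69, 71, 97, 111 and 37. An intensity trend gave 405 in COX-2+/- hippocampus, 138 and 29 in COX-1-/- hippocampus and cortex and 97 between regions. The row-order correction gave 182 by the rule in COX-2-/- hippocampus and by limma 4 in COX-1-/- hippocampus and 82 between regions.

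Set against the wild types of both lines, limma gave 440 in COX-2+/- hippocampus, 1 in COX-2+/- cortex and 0 in both COX-1-/- comparisons, and the rule gave 137 and 204 in COX-2+/- and COX-2-/- cortex, over the second part alone. The compared groups alone gave 0 in both COX-1-/- comparisons and between regions. All 30 arrays in a model gave 363 in COX-2+/- hippocampus and 53 and 77 in COX-1-/- hippocampus and cortex. With the copied values kept limma gave 5 in COX-2-/- cortex, 0 in COX-1-/- cortex and 126 between regions, and the rule gave 230 in COX-1-/- cortex. With the replicate number as a block limma gave 13 in COX-1-/- hippocampus, 11 in COX-1-/- cortex and 130 between regions, and no probe of the 5 genes changed its call. The cause of these shifts was not tested.

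Differences that changed sign were those of Senp6 probe 563 in COX-2+/- cortex (0.0235 after quantile normalization, -0.0644 to 0.0295 without single arrays), Sfxn2 there (-0.0345 with the row-order correction, -0.0160 to 0.0968 without single arrays), Senp6 probe 13 in COX-2-/- cortex (-0.0871 with that correction) and Senp6 probe 6715 there (-0.0203 to 0.0286). In COX-1-/- hippocampus they were Gcnt3 (0.0347 with both wild types, -0.0691 to 0.0447 without single arrays), Senp6 probe 6715 (-0.0674 with the row-order correction, -0.00817 to 0.0653), Pdlim5 probe 8418 (-0.0404 with that correction) and Senp6 probe 563 (-0.0559 to 0.00403). Mtor in COX-1-/- cortex was 0.0965 with both wild types and -0.221 to 0.0334 without single arrays, and Senp6 probe 6715 between regions was -0.0546 to 0.0474. Further probes changed sign in COX-2 hippocampus too. Over all alternatives Pdlim5 probe 8418 was -0.0888 to 0.0484 and Senp6 probe 6715 -0.0496 to 0.0531 in COX-2+/- hippocampus. In COX-2-/- hippocampus Senp6 probe 563 was -0.0909 to 0.0112 and Senp6 probe 6715 -0.0383 to 0.120.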
